A study of Mus musculus with 6 samples.

Results

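The T cell receptor alpha and beta segments were followed in CD4+ T cells of 2 genotypes that all carried the 2D2 receptor transgene. They were the gene rows whose name starts with Trav, Traj, Trac, Trbv, Trbd, Trbj or Trbc and which the annotation classes as receptor segments, 242 of the 55536 genes in the table. Tradd also fits the letters of the name rule, but it is a protein-coding signalling adaptor and was left out. HDAC1-cKO cells came from 2D2-Hdac1fl/fl-Cd4-Cre+ donors and WT cells from 2D2-Hdac1fl/fl-Cd4-Cre- donors, so both groups had floxed Hdac1 alleles and differed in the Cre transgene, which the Cd4 promoter drives. Both were C57BL/6, and ages are not given in the labels. Naive CD45.2+ donor cells were injected into CD45.1+ hosts, which kept their own T cells. The hosts received a MOG35-55 peptide emulsion in the footpad after 18 hours, and popliteal lymph nodes were taken after a further 4 days. Each group had 3 libraries, each from 500 sorted 2D2+ CD4+ cells of 2 pooled mice.

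An alpha chain gene is assembled from a variable (V), a joining (J) and a constant (C) segment, and a beta chain gene from V, diversity (D), J and C segments. The chromosome of each T cell is cut and rejoined in the thymus, so that one V and one J of the many in the locus end up in 1 transcript. A rearranged beta chain shuts off further beta rearrangement closely, whereas both alpha alleles can go on rearranging, and cells with a second alpha chain are common. The 2D2 receptor recognises a peptide of myelin oligodendrocyte glycoprotein, and its chains are known to use Trav9 and Trbv16. Cd4-Cre becomes active in the thymus at about the stage at which alpha genes rearrange. HDAC1 is a histone deacetylase, an enzyme that removes acetyl groups from histones.

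The sequences show how closely the copies of the alpha variable segment match, since reads on stretches that copies share cannot be told apart. The last 60 bases of the variable exon are shown for the 6 Trav9 copies with the highest share of counts, with capitals where a copy differs from Trav9n-3.
Trav9n-3: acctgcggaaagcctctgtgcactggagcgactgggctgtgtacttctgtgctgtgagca
Trav9d-3: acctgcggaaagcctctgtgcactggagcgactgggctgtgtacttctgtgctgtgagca
Trav9-2: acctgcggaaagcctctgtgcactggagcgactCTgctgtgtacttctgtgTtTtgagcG
Trav9n-2: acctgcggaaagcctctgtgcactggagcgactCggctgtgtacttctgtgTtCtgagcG
Trav9n-4: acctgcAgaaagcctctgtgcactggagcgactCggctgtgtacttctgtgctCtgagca
Trav9-4: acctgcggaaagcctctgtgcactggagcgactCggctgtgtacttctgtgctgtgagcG
These lie on the plus strand of chromosome 14, with Trav9n-3 at chr14:53232043-53232102 and its copy Trav9d-3 at chr14:52921053-52921112 (GRCm38, GENCODE M21 transcripts). Trav9n-3 and Trav9d-3 had the same letters over the whole transcript, with 526 of 526 stretches of 50 bases in common. Trav9n-2 and Trav9d-2 were also alike over all 337 stretches. The other copies shown were less alike. Trav9n-3 shared 19.8% of its stretches with Trav9-2, 22.6% with Trav9n-2, 9.13% with Trav9n-4 and 6.84% with Trav9-4.

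The beta variable segments are shown over the same length, with capitals for TGTGC, which starts with the codon of the conserved cysteine before the joining region. The letters were found on the coding strand of 83.1% of 130 V segments not classed as pseudogenes and of 63.6% of 33 V pseudogenes. They were counted anywhere in this window, not only at the cysteine codon.
Trbv16: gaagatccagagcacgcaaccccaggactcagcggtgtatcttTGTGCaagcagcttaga
Trbv13-1: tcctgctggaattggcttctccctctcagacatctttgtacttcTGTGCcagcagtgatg
Trbv12-2: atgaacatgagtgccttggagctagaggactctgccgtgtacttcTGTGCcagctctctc
Trbv12-1: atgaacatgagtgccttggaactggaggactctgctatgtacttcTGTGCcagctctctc
Trbv16 ends at chr6:41152171-41152230 on the plus strand. It shared none of its 349 stretches of 50 bases with Trbv13-1, Trbv12-2 or Trbv12-1, so reads on these 3 segments were distinct from reads on Trbv16.

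The leading joining segments are shown whole, with capitals for the letters TTTGG or TTCGG, which start the conserved phenylalanine-glycine motif. These letters were found on the coding strand of 56 of 64 J segments not classed as pseudogenes (87.5%) and of 4 of 10 J pseudogenes (40.0%).
Traj23: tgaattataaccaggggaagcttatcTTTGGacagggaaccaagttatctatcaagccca
Trbj1-1: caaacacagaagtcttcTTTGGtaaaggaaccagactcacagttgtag
Traj23 lies at chr14:54196081-54196140 and Trbj1-1 at chr6:41533864-41533911. Trbj1-1 is 48 bases long and the reads were 50 bases, so a read counted on it also covered bases outside it.

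The constant segments of the beta chain are shown for 60 bases around the single base at which their first exons differ, in capitals.
Trbc1: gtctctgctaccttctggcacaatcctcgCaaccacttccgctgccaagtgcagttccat
Trbc2: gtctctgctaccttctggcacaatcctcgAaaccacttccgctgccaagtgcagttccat
The windows are chr6:41538448-41538507 for Trbc1 and chr6:41546960-41547019 for Trbc2. The first exon has 375 bases, and the 2 genes shared 283 stretches of 50 bases, 40.5% of those of Trbc1 and 44.0% of those of Trbc2.

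Library totals were 19956153 to 36307610 counts in HDAC1-cKO and 39036751 to 55900237 in WT, and receptor segments took 3.39 to 4.72% of them in HDAC1-cKO and 3.79 to 4.54% in WT. Hdac1 stood at 17.2, 14.7 and 15.4 CPM (counts per 1000000 of the library total, scaled by TMM) in HDAC1-cKO and at 234, 236 and 244 CPM in WT. HDAC1-cKO replicate 2 stood apart on the second principal component of all genes, at 58.92 against -37.41 to 18.04 in the other 5 libraries. Its mitochondrial share of counts was also the lowest, 0.922% against 1.34 to 1.67%. Cd4 was present in every library, at 138, 239 and 150 CPM in HDAC1-cKO and 145, 165 and 182 CPM in WT. In libraries of bulk RNA, fewer cells of a type and less RNA per cell cannot be told apart. The labels do not say whether replicates came from separate experiments, so p-values measure the spread between these libraries.

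The receptor was dominated by 1 beta and 1 family of alpha variable segments in all 6 libraries of both genotypes. All cells came from 2D2 transgenic donors and were sorted as 2D2+. The design thus favoured high shares of these segments, and low shares of all others, in both genotypes in advance. Trbv16 took 98.6, 98.8 and 98.7% of Trbv counts in HDAC1-cKO and 99.0, 98.8 and 98.8% in WT, and the Trav9 family 94.5, 94.0 and 95.4% of Trav counts in HDAC1-cKO and 95.7, 95.4 and 94.5% in WT. The joining segments were led by Trbj1-1 and Traj23. None of the 153 segments tested was called in either direction at an edgeR adjusted p under 0.05, whereas 306 of 15519 genes were (1.97%). Of the 242 segments, 89 were not tested for low counts, 59 of them with some counts and 30 never counted, and 162 were counted in all 6 libraries.

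**Figure D1:**
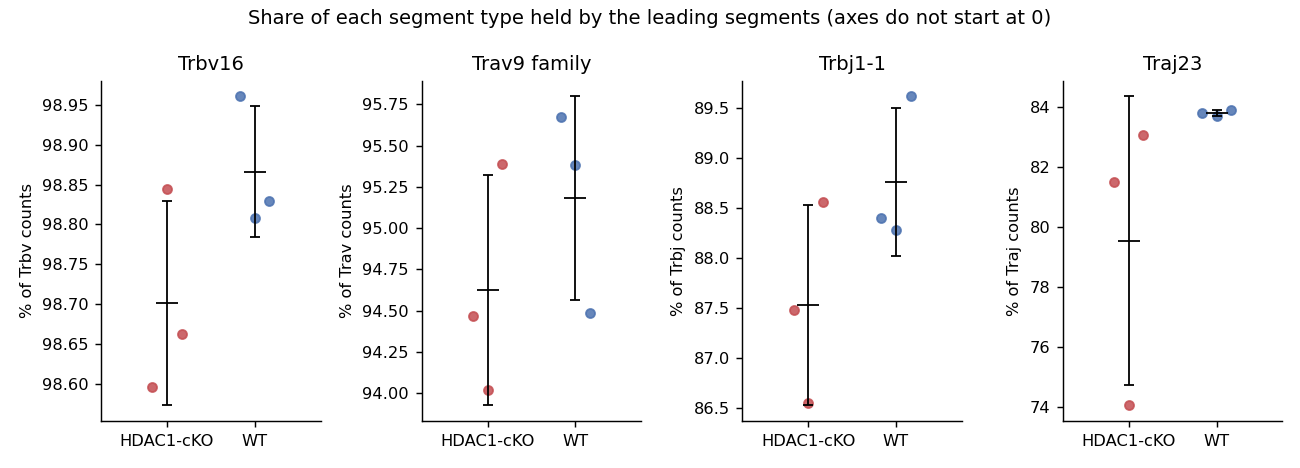
Share of the counts of each segment type (%, y axes, not starting at 0) held by Trbv16, the Trav9 family, Trbj1-1 and Traj23, with HDAC1-cKO left of WT. Points are libraries, lines the mean and SD (n = 3 each). The groups overlap for Trbv16, the Trav9 family and Trbj1-1, and the 3 WT points of Traj23 lie within 83.7 to 83.9%.

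Trbv16 encodes the beta variable domain of 2D2. Its level was 7752, 10675 and 7881 CPM in HDAC1-cKO and 9154, 10403 and 10822 CPM in WT. The groups overlapped, with HDAC1-cKO replicate 2 near the highest WT library. In log2 units HDAC1-cKO differed from WT by -0.21 ± 0.14 (SE; adjusted p by edgeR 0.529). Without HDAC1-cKO replicate 2 the difference was -0.38 (adjusted p 0.0562), with both remaining HDAC1-cKO libraries below all WT libraries, and without HDAC1-cKO replicate 1 or 3 it was -0.13 or -0.14. Its mean share of Trbv counts was 98.7 ± 0.128% in HDAC1-cKO and 98.9 ± 0.0821% in WT (SD, n = 3 each), a difference of -0.164 percentage points (exact permutation test, two-sided, p = 0.3, adjusted p = 0.6 over 10 usage values). With 3 libraries against 3, this test cannot go below 0.1. The exact binomial 95% interval of the share in a library had a half-width of 0.028 to 0.0561 points, from counting error only.

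Among the beta diversity and joining segments, Trbd1 had 14.9, 19.8 and 19.2 CPM in HDAC1-cKO and 13.4, 22.6 and 23.3 CPM in WT, and Trbd2 at most 2.38 CPM in any library. Both D segments overlapped between the genotypes. Trbj1-1, the leading beta joining segment, had 611, 893 and 650 CPM in HDAC1-cKO and 737, 857 and 940 CPM in WT, which overlap, for a difference of -0.23 ± 0.16 in log2 units (SE; adjusted p by edgeR 0.535), or -0.43 without HDAC1-cKO replicate 2 (adjusted p 0.0836). It followed Trbv16 closely, with 78.8, 83.6 and 82.5 counts per 1000 Trbv16 counts in HDAC1-cKO and 80.5, 82.4 and 86.9 in WT. Its share of Trbj counts was 87.5, 86.6 and 88.6% in HDAC1-cKO and 88.4, 88.3 and 89.6% in WT, a difference of -1.23 points (exact permutation p = 0.3). All 14 Trbj segments were counted in all 6 libraries. Trbj2-1, picked after its values were seen as the segment with the next highest count, had 33.2, 61.4 and 31.2 CPM in HDAC1-cKO and 41.9, 47.5 and 42.9 CPM in WT. The 12 others had at most 20.6 CPM in any library.

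Trbc1 and Trbc2 encode the constant domain of the beta chain and are normally joined to J segments of the first and the second cluster. Trbc2 had 17567, 24838 and 18439 CPM in HDAC1-cKO and 20662, 23998 and 24773 CPM in WT, and Trbc1 had 1263, 2077 and 1396 CPM in HDAC1-cKO and 1427, 1737 and 1848 CPM in WT. Both overlapped between the genotypes, with log2 fold changes of -0.19 ± 0.15 for Trbc2 and -0.08 ± 0.19 for Trbc1 (SE, edgeR adjusted p = 0.584 and 0.885). When HDAC1-cKO replicate 2 was left out, the differences were -0.37 for Trbc2 and -0.34 for Trbc1 (adjusted p 0.0701 and 0.170). Trbc1 held 6.71, 7.72 and 7.04% of Trbc counts in HDAC1-cKO and 6.46, 6.75 and 6.94% in WT (exact permutation p = 0.3). The counts were led by Trbc2 while the joining counts were led by Trbj1-1, a segment of the first cluster. Because the first exons differ at 1 base, how reads common to both genes were assigned bears on the split, and the sources do not state it. Trbc1 had 59.5% and Trbc2 56.0% of their stretches to themselves, and reads on these can be told apart. How the counts split on these stretches alone was not tested.

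**Figure D2:**
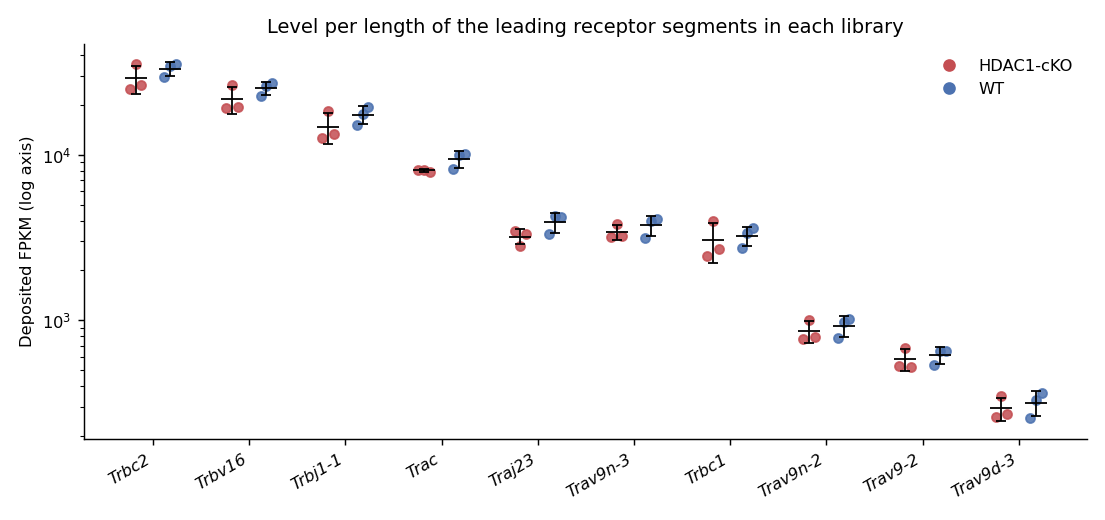
Level per length (FPKM as the authors deposited it, log axis) of the 10 leading receptor segments, with HDAC1-cKO left of WT. Points are libraries, lines the mean and SD (n = 3 each). Trbc2 and Trbv16 stand highest in both genotypes, and HDAC1-cKO replicate 2 is the highest HDAC1-cKO library for the beta segments and the lowest for Traj23.

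Per length, Trbv16 averaged 21717 ± 4035 FPKM in HDAC1-cKO and 25172 ± 2255 FPKM in WT (SD, n = 3 each). The Trav9 family summed to 5207 ± 639 FPKM in HDAC1-cKO and 5672 ± 786 FPKM in WT. Trbv16 thus stood 4.01, 4.44 and 4.00 times above the summed Trav9 FPKM in HDAC1-cKO and 4.75, 4.27 and 4.36 times in WT. Trac stood at 8034 ± 161 FPKM in HDAC1-cKO and 9437 ± 1120 FPKM in WT. The summed Trbc FPKM was 3.38, 4.83 and 3.69 times that of Trac in HDAC1-cKO and 3.95, 3.76 and 3.86 times in WT, with HDAC1-cKO replicate 2 above the other libraries.

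The alpha variable domain of 2D2 is encoded by a Trav9 segment, and which copy matches it was not tested. Trav9n-3 held most of the family's counts, with 1842, 2224 and 1881 CPM in HDAC1-cKO and 1831, 2325 and 2361 CPM in WT. The genotypes overlapped, and the difference was -0.13 ± 0.13 in log2 units (SE; adjusted p by edgeR 0.689). Trav9-2, Trav9n-2 and Trav9d-3, the other copies above 1% of Trav counts, had log2 fold changes of -0.08 ± 0.14, -0.11 ± 0.15 and -0.11 ± 0.17 (SE), also with overlapping libraries. When HDAC1-cKO replicate 2 was left out, the 4 copies differed by -0.27 to -0.22, with adjusted p from 0.280 to 0.358. The Trav9 share of Trav counts differed by -0.56 points (exact permutation p = 0.3).

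The split between the copies was nearly the same in every library. Trav9n-3 had 12.1, 10.9 and 11.9 counts for each count of Trav9d-3 in HDAC1-cKO and 12.15, 12.05 and 11.2 in WT, although the transcripts of these copies are identical. Trav9n-2 had 14.4, 15.5 and 14.4% as many counts as Trav9n-3 in HDAC1-cKO and 14.6, 14.4 and 14.7% in WT, whereas its identical copy Trav9d-2 had 0, 0 and 0 counts in HDAC1-cKO and 2, 1 and 0 in WT. The counts of single copies are therefore uncertain, and the sum over the family is the safer value.

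Traj23 was the leading alpha joining segment. It had 210, 172 and 202 CPM in HDAC1-cKO and 201, 258 and 255 CPM in WT, which overlap by 1 WT library, for a difference of -0.29 ± 0.14 in log2 units (SE; adjusted p by edgeR 0.332). Its share of Traj counts was 81.5, 74.1 and 83.1% in HDAC1-cKO and 83.8, 83.7 and 83.9% in WT. All 3 HDAC1-cKO libraries were below all 3 WT libraries, a difference of -4.26 points at the smallest p that the exact permutation test allows (p = 0.1, adjusted p = 0.6 over 10 usage values). Without HDAC1-cKO replicate 2 the difference was -1.52 points. In that library 6440 of 8696 Traj counts were Traj23, and Traj23 stood at 53.6 counts per 1000 Trav9 counts against 76.5 to 81.0 in the other 5 libraries. All 60 Traj segments were counted in some library, and 52 in all 6. Those other than Traj23 summed to 47.7, 60.4 and 41.3 CPM in HDAC1-cKO and 39.0, 50.3 and 48.9 CPM in WT.

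Trac encodes the constant domain of the alpha chain. It had 3400, 3414 and 3283 CPM in HDAC1-cKO and 3416, 4185 and 4218 CPM in WT. The libraries of the genotypes did not overlap, though the nearest of them, HDAC1-cKO replicate 2 and WT replicate 1, were almost equal. The difference was -0.23 ± 0.11 in log2 units (SE; adjusted p by edgeR 0.339). Trac had 0.999 counts for each Trav count in HDAC1-cKO replicate 2, against 1.19 to 1.26 in the other 5 libraries. The log2 ratio of Trac to Trbc CPM was -2.47, -2.98 and -2.59 in HDAC1-cKO and -2.69, -2.62 and -2.66 in WT, a difference of -0.02 (exact permutation p = 1.0), and the difference turned to 0.125 without HDAC1-cKO replicate 2.

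Of the beta variable segments other than Trbv16, 3 are called steady here, a set drawn after its values were seen. Trbv13-1, Trbv12-2 and Trbv12-1 were counted at similar levels in all 6 libraries, and together they made up 95.2, 97.7 and 96.6% of the non-Trbv16 Trbv counts in HDAC1-cKO and 99.4, 94.9 and 89.7% in WT. Trbv13-1 had 54.3, 66.0 and 52.1 CPM in HDAC1-cKO and 49.2, 65.5 and 63.1 CPM in WT. Trbv12-2 had 42.3, 47.1 and 40.4 CPM in HDAC1-cKO and 37.4, 44.8 and 42.6 CPM in WT. Trbv12-1 had 8.43, 8.80 and 10.7 CPM in HDAC1-cKO and 8.98, 8.74 and 9.32 CPM in WT. All 3 overlapped between the genotypes, with log2 fold changes of -0.04 ± 0.16, 0.06 ± 0.13 and 0.04 ± 0.19 (SE, edgeR adjusted p from 0.882 to 0.940).

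These steady segments lie upstream of Trbv16 on chromosome 6, ending 35272 bases (Trbv13-1), 32376 bases (Trbv12-2) and 37673 bases (Trbv12-1) before its start. Another 5 Trbv segments lie between Trbv12-2 and Trbv16. Over the 6 libraries, Trbv13-2 had 122 counts, Trbv13-3 had 7, and Trbv12-3, Trbv14 and Trbv15 had 0. Per 1000 Trbv16 counts, Trbv13-1 had 7.01, 6.19 and 6.61 counts in HDAC1-cKO and 5.38, 6.30 and 5.83 in WT. The same ratio for Trbv12-2 was 5.45, 4.41 and 5.13 in HDAC1-cKO and 4.08, 4.31 and 3.94 in WT, all HDAC1-cKO libraries above all WT libraries. No test was run on these ratios.

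**Figure D3:**
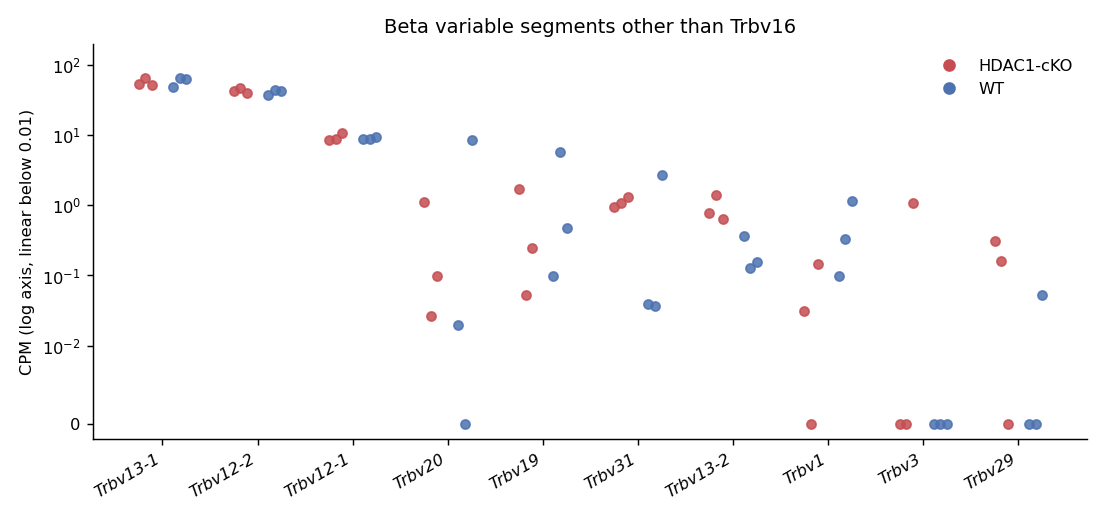
Level (CPM, log axis, linear below 0.01) of the 10 Trbv segments with the highest mean share of Trbv counts after Trbv16, with HDAC1-cKO left of WT in each pair and 1 point per library. Trbv13-1, Trbv12-2 and Trbv12-1 sit at 8.43 CPM or more in every library, and each other segment is at or below 0.127 CPM in at least 1 library.

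The other beta segments varied more between libraries, and of those with at least 100 counts Trbv19 and Trbv20 had over 50% of their summed CPM in 1 library. Trbv19 had 55, 2 and 5 counts in HDAC1-cKO and 5, 316 and 18 in WT. Trbv20 had 36, 1 and 2 counts in HDAC1-cKO and 1, 0 and 326 in WT. WT replicate 3 held 87.3% of the summed CPM of Trbv20, and WT replicate 2 held 69.2% of that of Trbv19. The log2 fold change of Trbv19 was -1.65 ± 1.46 (SE, edgeR adjusted p = 0.639) with all libraries and 1.22 without WT replicate 2. Trbv3 had 22 counts in HDAC1-cKO replicate 3 and Trbv26 had 10 in HDAC1-cKO replicate 1, with 0 in every other library. A count of 0 in a library allows a share of up to 0.000518 to 0.00184% of its Trbv counts, from counting error only, since amplified reads are not independent molecules. Without Trbv16 and the 3 steady segments, 172, 106 and 73 Trbv counts were left in HDAC1-cKO and 32, 352 and 499 in WT, which is 0.0671, 0.0263 and 0.0448% of Trbv counts in HDAC1-cKO and 0.00675, 0.0608 and 0.120% in WT. Of the 35 Trbv segments, 17 had no count in any library.

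Trbv13-2 had the lowest adjusted p of all segments and is named for that, after its values were seen. It had 25, 52 and 13 counts in HDAC1-cKO and 19, 7 and 6 in WT, or 0.767, 1.39 and 0.637 CPM in HDAC1-cKO and 0.371, 0.127 and 0.158 CPM in WT. All HDAC1-cKO libraries were above all WT libraries in CPM. The log2 fold change was 2.08 ± 0.65 (SE, edgeR adjusted p = 0.148), and limma on log2(FPKM + 1) gave an adjusted p of 0.0499. All non-Trbv16 Trbv segments summed to 110, 125 and 107 CPM in HDAC1-cKO and 96.2, 125 and 128 CPM in WT, a log2 difference of -0.02 (exact permutation p = 0.8).

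Counts on alpha variable segments outside the Trav9 family were spread over many segments in every library. They summed to 152, 204 and 128 CPM in HDAC1-cKO and 117, 158 and 194 CPM in WT, which overlap, a log2 difference of 0.05 (exact permutation p = 0.8). Of 117 such segments, 91, 95 and 83 were counted in HDAC1-cKO and 97, 91 and 95 in WT. With counts thinned to the smallest library total, these numbers were 88, 92 and 83 in HDAC1-cKO and 93, 87 and 89 in WT. The effective number of segments was taken as the inverse of the sum of their squared shares. It was 30.2, 35.8 and 33.7 in HDAC1-cKO and 23.6, 36.1 and 28.9 in WT. The difference of 3.71 segments (exact permutation p = 0.5) was 0.747 without WT replicate 1 and 6.99 without WT replicate 2. The same measure for non-Trbv16 Trbv segments was 2.53, 2.34 and 2.55 in HDAC1-cKO and 2.37, 2.46 and 2.75 in WT.

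Trav17 had the highest count of these segments in HDAC1-cKO replicate 1, with 11.7% of them, and in WT replicate 1, with 14.5%. Trav3-3 was highest in HDAC1-cKO replicate 2 with 7.55% and in WT replicate 2 with 6.19%, Trav8-2 in HDAC1-cKO replicate 3 with 6.33%, and Trav12-2 in WT replicate 3 with 7.64%. The leading segment thus changed from library to library within each genotype. Trav17 had 17.7, 9.95 and 4.41 CPM in HDAC1-cKO and 16.9, 6.58 and 10.5 CPM in WT. Trav3-3 had 7.85, 15.4 and 6.22 CPM in HDAC1-cKO and 7.77, 9.78 and 12.9 CPM in WT. Both overlapped between the genotypes. For Trav17, Trav3-3, Trav12-2, Trav12-3 and Trav19 the log2 fold changes lay from -0.46 to 0.07, none was called, and each changed sign when some single library was left out. Trav7d-3 was counted in WT alone, with 1, 0 and 52 counts.

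The spread between libraries was measured as the coefficient of variation (CV) of a segment's share over the 6 libraries, for segments with at least 100 counts in all. The median CV was 48.9% for 65 non-Trav9 Trav segments, 7.83% for 9 Trav9 copies, 34.1% for 35 Traj segments other than Traj23, 15.4% for 14 Trbj segments and 76.5% for 7 Trbv segments other than Trbv16, with the largest at 199%. The 3 Trbv segments picked as steady had CVs of 9.09 to 20.5%, which the choice fixed. Segments with lower shares have more counting error, and this was not removed from the CV. Among the non-Trav9 Trav segments, 4 had at least 50% of their summed CPM in 1 library. They were Trav23 and Trav7n-5 in HDAC1-cKO replicate 2, and Trav10 and Trav10d in WT replicate 2. Trav10 and Trav10d share 60.2% of their stretches of 50 bases.

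**Figure D4:**
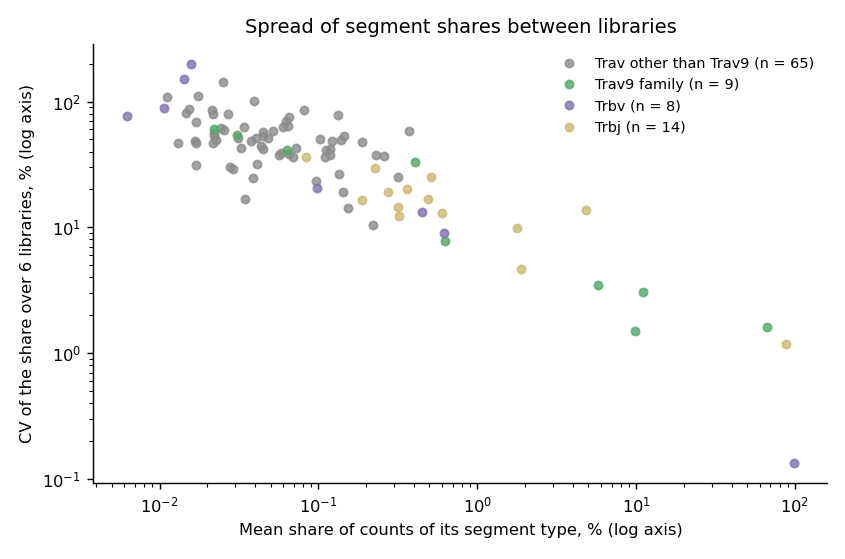
CV over 6 libraries of each segment's share (%, y axis, log) against its mean share of the counts of its segment type (%, x axis, log), for segments with at least 100 counts. Non-Trav9 Trav segments are grey, Trav9 copies green, Trbv purple and Trbj yellow. Segments with low shares vary most, and the share of Trbv16, near its ceiling of 100%, has a CV of 0.133%, while the share of all other Trbv segments together has one of 10.8%.

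The alpha locus of this strain holds duplicated blocks of V segments whose names carry the letters d and n. Segments without such a letter held 73.6, 74.6 and 75.8% of the non-Trav9 Trav counts in HDAC1-cKO and 79.0, 74.6 and 78.1% in WT. The d copies held 10.5 to 14.4% over the 6 libraries, and the n copies held 13.2, 13.2 and 12.2% in HDAC1-cKO and 10.4, 11.1 and 10.1% in WT. The n share was higher in all HDAC1-cKO than in all WT libraries, and it was not tested. The median segment with a d or n in its name had 0% of its 50-base stretches to itself, against 69.0% for the other segments. Over all 128 Trav segments the median was 36.8%, and 75 were below 50%, whereas the median of Trbv segments was 100%.

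Of the 153 tested, 80 had a positive and 73 a negative log2 fold change, with a median of 0.0227 and a range from -2.13 to 2.08, beside a median of -0.00207 over all genes tested. Passing the filter on low counts depends on the libraries in which a segment is high, so these numbers describe the tested segments alone. At an unadjusted p under 0.05, 8 segments were higher in HDAC1-cKO and 3 lower, beside 8.62% of all genes tested higher and 8.39% lower. That is 7.19% of the segments tested, against 17.0% of all genes in either direction. With limma on log2(FPKM + 1) it was 23 higher and 7 lower, 19.6% of the segments against 18.07% of all genes. Log2 fold changes within 1 unit of 0 were found for 86.3% of the segments and 90.7% of all genes. The 8 higher ones were Trbv13-2, Traj53, Trav5-4, Trav4-4-dv10, Trav6-6, Trav3-4, Trav5d-4 and Trav4n-4, and the 3 lower ones Trav14-1, Trav10 and Trav12n-1, named after their values were seen. Trav5-4 and Trav5d-4 share 44.2% of their stretches. Trav4-4-dv10 shares 46.2% of its stretches with Trav4d-4, whose stretches are the same as those of Trav4n-4. Trav6-6, Trav5d-4, Trav4n-4 and, among the lower ones, Trav12n-1 had 0% of their stretches to themselves. Without HDAC1-cKO replicate 2 the numbers turned to 2 higher and 10 lower, 7.5% of 160 segments against 20.67% of all genes, and the median to -0.154.

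The libraries of the genotypes did not overlap for 15 segments that were higher in HDAC1-cKO and 5 that were lower, beside 12.7% of all genes tested above and 11.8% below. The 5 lower ones were Trac, Trbj1-5, Trav6d-3, Trav12n-1 and Trav14n-1, of which Trac alone had more than 3 CPM in every library. All 15 higher ones had at most 5.94 CPM in every library.

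**Figure D5:**
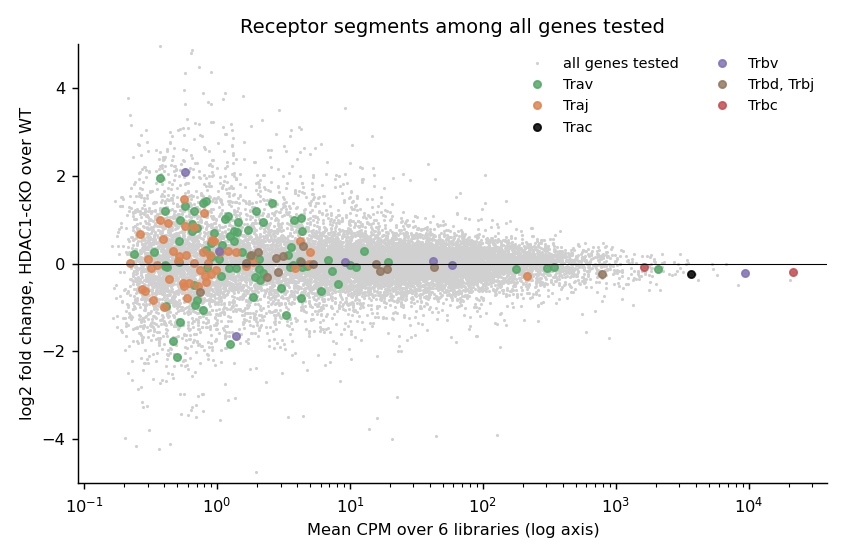
log2 fold change of HDAC1-cKO over WT (y axis) against mean CPM over 6 libraries (x axis, log) for all genes tested (grey) and the 153 tested receptor segments (coloured by type). The plot ends at a log2 fold change of 5 in either direction, beyond which 23 genes lie. The segments with the highest counts lie just below 0, and those near 1 CPM spread from -2.13 to 2.08.

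The CD3 chains carry the receptor to the surface and pass on its signal. Of 5 receptor partners, the CD3 chain genes Cd3e, Cd3d, Cd3g and Cd247 and the gene Cd4, 1 was called lower and 0 higher. Over all genes tested, 0.992% were called lower and 0.979% higher. Cd3e, which encodes the epsilon chain, fell to 41.7, 51.0 and 38.2 CPM in HDAC1-cKO, against 105, 110 and 136 CPM in WT. The difference was -1.42 ± 0.16 in log2 units (SE; adjusted p by edgeR 0.0102). Leaving out WT replicate 3, HDAC1-cKO replicate 1 or HDAC1-cKO replicate 3 ended the call, with adjusted p from 0.0504 to 0.0716 and differences of -1.31, -1.40 and -1.34. Cd3g differed by -0.64 ± 0.14, Cd3d by -0.40 ± 0.22, Cd247 by 0.06 ± 0.18 and Cd4 by 0.10 ± 0.21 (SE; adjusted p by edgeR 0.0605, 0.404, 0.910 and 0.870). Both Cd3g and Cd3d were called when HDAC1-cKO replicate 2 was left out (log2 fold changes of -0.80 and -0.72, adjusted p = 0.0103 and 0.0237).

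Genes of other cell types were followed beside the residual segments. The recombinase genes Rag1 and Rag2 had 0 counts in every library, and Dntt and Ptcra, which act in thymocytes, were under 1 CPM. The gamma delta list, of which 3 of 6 names were in the table, summed to 34.0 to 49.9 CPM in HDAC1-cKO and 35.7 to 58.2 CPM in WT, nearly all from Trdc. The gamma constant genes Tcrg-C1, Tcrg-C2 and Tcrg-C4, added after the data were seen, summed to 20.6 to 63.0 CPM in HDAC1-cKO and 13.9 to 56.7 CPM in WT. The CD8 genes summed to 65.7 to 72.3 CPM in HDAC1-cKO and 45.4 to 59.4 CPM in WT, nearly all Cd8b1, with Cd8a at 0.936 to 2.55 CPM in HDAC1-cKO and 0.0182 to 2.37 CPM in WT. Of the genes listed for NKT cells, none taken here as specific to them, Zbtb16, Klra1 and Ncr1 were at 0 in every library. Klrb1c had 0.686 to 2.51 CPM in HDAC1-cKO and 2.28 to 3.38 CPM in WT. All 8 B cell genes were counted, and they summed to 153 to 326 CPM in HDAC1-cKO and 74.5 to 190 CPM in WT, while 5 of 6 myeloid genes summed to 36.6 to 101 CPM in HDAC1-cKO and 27.9 to 97.4 CPM in WT, with Csf1r at 0. Except in WT replicate 1, where Xcr1 was slightly higher, most of that sum was H2-Ab1, a class II gene that B cells also express. H2-Ab1 had 27.1, 89.8 and 47.3 CPM in HDAC1-cKO and 10.8, 61.5 and 41.0 CPM in WT. Lyz2 had 0.981, 3.75 and 2.70 CPM in HDAC1-cKO and 2.03, 22.6 and 10.4 CPM in WT. Xcr1 had 4.78, 1.55 and 4.46 CPM in HDAC1-cKO and 11.3, 10.8 and 9.64 CPM in WT. Cd68 had 2.48, 6.21 and 5.24 CPM in HDAC1-cKO and 2.01, 2.20 and 2.11 CPM in WT. It differed the other way from Xcr1, and both had libraries that did not overlap. Tcrg-C1, Cd8b1 and Cd79b were also higher in all HDAC1-cKO than in all WT libraries. Tcrg-C1 had 26.7, 14.8 and 14.6 CPM in HDAC1-cKO and 11.96, 11.05 and 6.87 CPM in WT. Cd79b had 18.8, 25.9 and 18.6 CPM in HDAC1-cKO and 10.5, 12.4 and 8.69 CPM in WT. Ptcra was lower in all HDAC1-cKO than in all WT libraries. Of all genes tested, 24.6% had libraries that did not overlap. No gene of these lists was called, and their part in the residual segment counts was not tested.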

How the data were processed

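Libraries were made from 500 cells each with the Smart-seq2 protocol and Nextera XT and read as single 50-base reads, per the labels' protocols; this chemistry does not mark strand. The authors deposited raw counts per gene and FPKM values. The submitters' processing notes list STAR 2.5.2b, Picard 2.19.2, DESeq2 1.24.0, R 3.6.1 and the builds GRCm38 and GRCh38. The read counter, and how it treated reads with several matches, is not stated in any label or header. Each library had its own column, and 0 columns lacked a sample. Coordinates of all 242 segments equal those of GENCODE M21.

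Counts were fitted across all genes with edgeR 4.0.16 (quasi-likelihood, robust, filterByExpr, TMM) in R 4.3.3, with Benjamini-Hochberg adjustment over 15519 genes and calls at 0.05. CPM used the TMM totals. The 10 usage values were compared by exact two-sided permutation tests. Alternatives were DESeq2 1.42.0, limma 3.58.1 on log2(FPKM + 1), other scalings and filters, thinning, the replicate block, and leaving out each library. Intervals are exact binomial at 95%, and floors are 3 counts. Shared sequence was counted over 50-base stretches of GENCODE M21 transcripts. No 2 libraries differed by less than sampling noise.

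Segments and lists were chosen with earlier results of these data known. Named were Trbv16, Trav9 copies above 1% of Trav counts, the constant segments, the leading J segments, the 5 next Trav and 5 next Trbv, called segments, those with at least 10 counts in 1 genotype alone, and Cd3e, Cd3d, Cd3g, Cd247 and Cd4.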

Additional observations from a re-analysis of the deposited data

How the results depend on the processing

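No receptor segment was called under any alternative except limma on log2(FPKM + 1), which called 1, Trbv13-2; DESeq2 gave no adjusted p for 30 segments. The number of genes called in all, 306, was 1374 with the DESeq2 Wald test, 65 with the replicate block, and 26 to 626 without 1 library. The deviations of same-numbered libraries from their group means correlated at -0.0422 to 0.0238, against -0.0478 to 0.0501 for differently numbered libraries. With 3 libraries per group, these values cannot decide whether the numbers pair the libraries. The block changed the call of no segment. Without 1 library, the difference in Trbv16 share ran from -0.236 to -0.112 points, in Trav9 share from -0.939 to -0.255, in Trbj1-1 share from -1.74 to -0.743, in Traj23 share from -6.02 to -1.52 and in Trbc1 share from 0.156 to 0.660. The log2 difference ran from -0.158 to 0.0493 for non-Trbv16 Trbv CPM, from -0.146 to 0.220 for non-Trav9 Trav CPM and from -0.130 to 0.125 for the Trac to Trbc ratio, and the difference in effective number from -0.132 to 0.0584 (Trbv) and from 0.747 to 6.99 (Trav). Log2 fold changes ran through 0 for Trbc1 (-0.338 to 0.0513), Trav17 (-0.65 to 0.32), Trav3-3 (-0.53 to 0.20), Trav12-2 (-0.79 to 0.00130), Trav12-3 (-0.69 to 0.37), Trav19 (-0.11 to 0.25), Trbv13-1 (-0.172 to 0.0218), Trbv12-2 (-0.0246 to 0.102), Trbv12-1 (-0.0653 to 0.105), Trbv19 (-3.95 to 1.22), Cd247 (-0.19 to 0.18) and Cd4 (-0.20 to 0.24). Cd3g was called with no filter, with the 10 CPM filter, with DESeq2 and with limma (adjusted p = 0.0374, 0.0425, 0.00120 and 0.0444). The causes of these changes were not tested. The smaller HDAC1-cKO totals limit what can be seen of segments under 1 CPM.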
